A study of Mus musculus with 24 samples.

Results

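Described here are 9 genes of the citrate cycle, chosen by symbol as members of that pathway from the 25385 genes in the deposited values of 24 RNA-seq libraries. They are citrate synthase (Cs), the NADP+-dependent mitochondrial isocitrate dehydrogenase (Idh2), the 3 subunits of the NAD+-dependent isocitrate dehydrogenase (Idh3a, Idh3b and Idh3g), the first component of the 2-oxoglutarate dehydrogenase complex (Ogdh), the alpha subunit of succinyl-CoA synthetase (Suclg1), fumarate hydratase (Fh1) and mitochondrial malate dehydrogenase (Mdh2). The citrate cycle runs in the mitochondrial matrix, where it oxidizes acetyl groups and passes electrons to the respiratory chain through reduced cofactors. In fat cells it also supplies citrate, which is exported to the cytosol and split into the acetyl-CoA that fatty acid synthesis uses. Mitochondria are known to increase in number and content while preadipocytes mature.

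The cells were mouse marrow-derived mesenchymal stem cells, cultured stromal cells that can form adipocytes or osteoblasts. Adipogenic cultures had been given dexamethasone, insulin and indomethacin until day 7, osteogenic cultures ascorbic acid and beta-glycerophosphate until day 7 or day 15, and undifferentiated cells were taken at day 0. In each state 3 libraries came from cells given 100 nM 1,25(OH)2D3, the hormonal form of vitamin D (VD3 below), for 24 hours before harvest and 3 from cells given ethanol vehicle. The labels name a single cell stock and no animals or separate cultures, so p-values measure the spread between these samples, which may be technical. No undifferentiated library was kept in culture to a later day, so medium and time cannot be told apart in a comparison with day 0.

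Values are RPKM (reads per kilobase of transcript, scaled to library depth), which is a level per length and allows levels of different genes to be compared. A difference is given on the log2(RPKM + 1) scale with its standard error (SE), and a gene rose or fell where its Benjamini-Hochberg adjusted p over 21097 tested genes was below 0.05 in limma. All 9 members passed the filter on low values. Group values are mean ± SD over 3 libraries.

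Estimated depth, read from the step size of low values, ranged 7.09 to 47.5 M reads (M, 1e6). Of the 6 day 0 libraries, 5 stood apart: the median of 1497 olfactory, vomeronasal and taste receptor genes, families normally silent outside sensory tissue, was 3.38 to 4.93 RPKM in them, 0.456 RPKM in day 0 VD3 replicate 2 and 0.208 to 1.30 RPKM in the 18 differentiated libraries. Those 5 libraries also had the lowest depths, 7.09 to 11.0 M reads. Osteogenic day 7 vehicle replicate 3 was next, at 11.4 M reads, with a receptor median of 0.394 RPKM. The receptor signal moved with each comparison to day 0, and the median log2 difference of all genes tested was -0.83 for adipogenic day 7, -0.46 for osteogenic day 7 and -0.55 for osteogenic day 15. Rescaling by median ratio raised these medians by 0.44, 0.38 and 0.35, so a member's change against day 0 is best read beside the median of all genes. With quantile normalization, 5273 genes rose and 5065 fell on adipogenic day 7, against 2775 and 13814 without it, and the split on osteogenic day 7 was 5431 and 3716, against 2874 and 10636. On osteogenic day 15 it was 6128 and 4334, against 3692 and 11260. Between adipogenic and osteogenic day 7, 3452 genes rose and 4019 fell with median-ratio rescaling, against 2626 and 5351 without it, and between osteogenic days 15 and 7 the split was 740 and 1078, against 1449 and 1364. Subtracting the receptor median left every member's call in the adipogenic comparisons and in the VD3 effect on Idh3a, and changed some calls in the osteogenic and other VD3 comparisons, which are given with the gene.

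The 6 adipocyte markers (Adipoq, Fabp4, Plin1, Cidec, Cfd and Pparg) summed to 27782 to 29973 RPKM in adipogenic vehicle libraries, against 42.3 to 51.0 in osteogenic day 7 and 94.7 to 120 in day 0 vehicle libraries, where Plin1, Cidec and Cfd averaged under 1 RPKM. The 6 osteoblast markers (Ibsp, Dmp1, Bglap, Alpl, Phex and Sp7) summed to 515 to 534 RPKM on osteogenic day 7 and 654 to 731 on day 15, and to 119 to 140 in adipogenic and 23.9 to 27.2 in day 0 vehicle libraries. Ibsp held most of the day 15 and adipogenic sums, at 596 ± 40.1 and 104 ± 7.89 RPKM. On osteogenic day 15 against day 7, 1 marker rose (Ibsp) and 3 fell (Dmp1, Phex and Sp7). Dmp1 was at 178 ± 10.0 RPKM on osteogenic day 7, 41.1 ± 5.64 on day 15 and 1.82 ± 0.374 in adipogenic cells. The 6 markers of macrophages and other blood cells summed to 3.08 to 11.8 RPKM in vehicle libraries and were highest at day 0. In the same libraries 4 endothelial markers summed to 0.636 to 14.3 RPKM and 4 skeletal muscle markers to 0.114 to 3.53. The endothelial sums were highest on osteogenic day 15, where Kdr was at 12.4 ± 2.06 RPKM and Pecam1, Cdh5 and Tek averaged under 1 RPKM. The day 0 vehicle libraries had receptor medians of 3.5 to 4.9 RPKM per gene, so the low blood cell sums there cannot show such cells. What part the marker differences have in the results below was not tested. In bulk samples fewer cells of a type and less RNA per cell cannot be told apart.

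**Figure D1:**
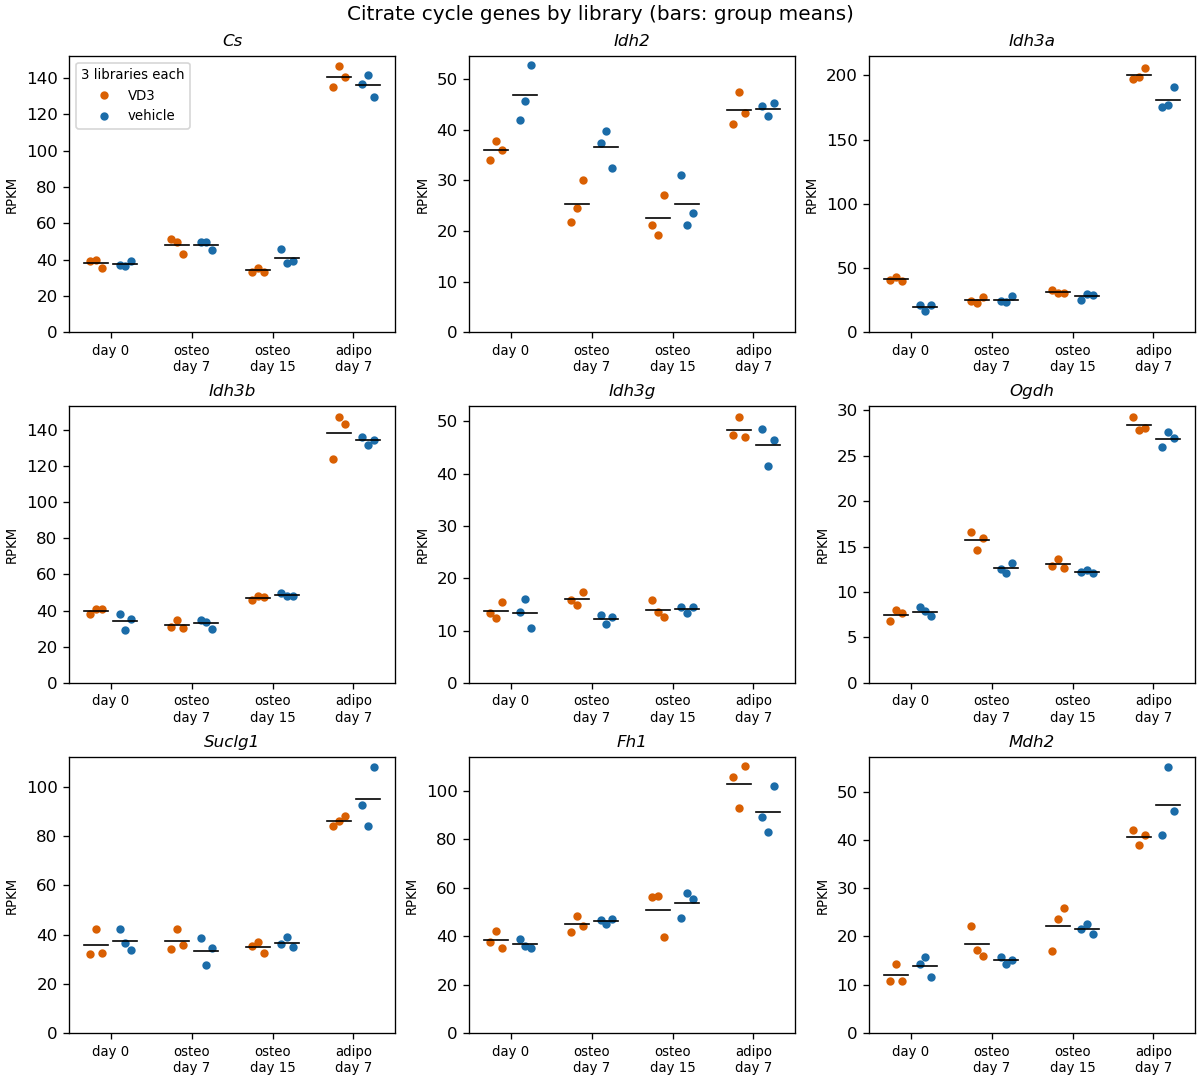
RPKM (linear axis from 0) of the 9 citrate cycle genes in each of the 24 libraries, by state, with VD3 and vehicle libraries side by side. Each point is a library and each bar a group mean; for all genes but Idh2, every adipogenic library lies above every other library.

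Adipogenic cells held more RNA of 8 of the 9 citrate cycle genes than day 0 or osteogenic cells, and Idh2 was not called. Against day 0, 8 members rose and 0 fell in vehicle libraries, with a median log2 difference of 1.70, against a median of -0.83 for all genes. Of all genes tested, 13.2% rose and 65.5% fell in that comparison. Against osteogenic day 7, 8 members again rose and 0 fell, with a median of 1.48 against 0.02 for all genes, where 12.4% of all genes rose and 25.4% fell. At an unadjusted p below 0.05 the same count of 8 members passed in each of these comparisons, which share the adipogenic libraries. In both, every rise was also called under each alternative tried.

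The largest difference was that of Idh3a, the catalytic subunit of the NAD+-dependent isocitrate dehydrogenase, which makes 2-oxoglutarate from isocitrate and is a regulated step of the cycle. Its level was 175, 177 and 191 RPKM in adipogenic vehicle libraries, against 24.1, 23.5 and 28.1 RPKM on osteogenic day 7 and 21.3, 16.9 and 21.1 RPKM at day 0. The adipogenic libraries were far above both other groups, which did not overlap each other either. Idh3a rose 9.17-fold over day 0 by group means (log2 difference 3.14, SE 0.10, adjusted p = 1.98e-17) and 7.17-fold over osteogenic day 7 (2.80, SE 0.10, adjusted p = 9.99e-17).

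The other subunits of the same enzyme, which bind and regulate the catalytic one, also rose. Idh3b was at 136, 132 and 135 RPKM in adipogenic vehicle libraries, against 34.8, 33.8 and 30.0 RPKM on osteogenic day 7 and 38.1, 29.0 and 35.4 RPKM at day 0. Idh3g was at 48.6, 41.4 and 46.5 RPKM in adipogenic vehicle libraries, against 13.0, 11.2 and 12.7 RPKM on osteogenic day 7 and 13.5, 16.1 and 10.4 RPKM at day 0. Neither gene's adipogenic libraries overlapped those of the other groups. Against day 0, Idh3b rose by 1.95 (SE 0.09, adjusted p = 2.59e-14) and Idh3g by 1.71 (SE 0.12, adjusted p = 3.70e-11) on the log2 scale.

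Cs, which condenses acetyl-CoA with oxaloacetate and opens the cycle, was at 137, 142 and 130 RPKM in adipogenic vehicle libraries, against 49.7, 50.0 and 45.2 RPKM on osteogenic day 7 and 37.3, 36.7 and 39.1 RPKM at day 0. All 3 groups were apart from each other. Cs rose 3.61-fold over day 0 (log2 difference 1.83, SE 0.08, adjusted p = 1.92e-14) and 2.82-fold over osteogenic day 7 (1.48, SE 0.08, adjusted p = 6.50e-13). Csl, a gene of closely related sequence that could share reads with Cs, was listed at 4.37 to 6.78 RPKM in adipogenic vehicle libraries and 3.37 to 4.59 RPKM at day 0.

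Ogdh, the decarboxylating component of the 2-oxoglutarate dehydrogenase complex and the lowest member in 7 of the 8 groups, was at 25.9, 27.6 and 26.9 RPKM in adipogenic vehicle libraries. Its libraries were at 12.5, 12.1 and 13.2 RPKM on osteogenic day 7 and at 8.35, 7.87 and 7.32 RPKM at day 0, again with no overlap. Ogdh rose 3.42-fold over day 0 (log2 difference 1.65, SE 0.08, adjusted p = 3.07e-14) and 2.13-fold over osteogenic day 7 (1.03, SE 0.08, adjusted p = 1.07e-10). The receptor medians of the day 0 vehicle libraries were 3.5 to 4.9 RPKM, and the alternatives gave log2 differences of 1.61 to 2.57 from day 0.

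The enzymes after Ogdh, which turn succinyl-CoA back into oxaloacetate, rose too. Suclg1 was at 92.6, 83.8 and 108 RPKM in adipogenic vehicle libraries, against 38.5, 27.5 and 34.4 RPKM on osteogenic day 7 and 42.2, 36.7 and 33.8 RPKM at day 0. Fh1, which hydrates fumarate to malate, was at 89.0, 83.1 and 102 RPKM in adipogenic vehicle libraries, against 46.5, 44.8 and 47.2 RPKM on osteogenic day 7 and 39.0, 36.1 and 35.3 RPKM at day 0. Mdh2, which makes oxaloacetate from malate, was at 41.0, 55.0 and 46.0 RPKM in adipogenic vehicle libraries, against 15.8, 14.2 and 15.1 RPKM on osteogenic day 7 and 14.3, 15.7 and 11.6 RPKM at day 0. Each of the 3 genes was higher in every adipogenic library than in any library of the other groups. Suclg1 rose 2.52-fold, Fh1 2.48-fold and Mdh2 3.41-fold over day 0 by group means, with log2 differences of 1.31 (SE 0.12), 1.29 (SE 0.12) and 1.70 (SE 0.15) and adjusted p-values of 7.46e-09, 3.88e-09 and 1.58e-09.

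Idh2, which makes 2-oxoglutarate and NADPH and belongs to the same matrix as the NAD+-dependent enzyme, was not called in either comparison. It was at 44.6, 42.6 and 45.2 RPKM in adipogenic vehicle libraries, against 37.4, 39.8 and 32.3 RPKM on osteogenic day 7 and 41.9, 45.7 and 52.8 RPKM at day 0. The adipogenic libraries lay within the range of day 0 and above that of osteogenic day 7. The log2 difference was -0.08 against day 0 (SE 0.14, adjusted p = 0.608) and 0.27 against osteogenic day 7 (SE 0.14, adjusted p = 0.135). With median-ratio rescaling Idh2 was called higher than day 0, by 0.54 (adjusted p = 0.00974), and higher than osteogenic day 7, by 0.47 (adjusted p = 0.0384), the smallest rise among the 9 members in each case. Against osteogenic day 7 it was also called higher with quantile normalization (0.37, adjusted p = 0.0370) and in a fit of the compared libraries alone (0.27, adjusted p = 0.0303). Between VD3-treated libraries the difference from osteogenic day 7 was 0.78 (adjusted p = 5.59e-05).

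**Figure D2:**
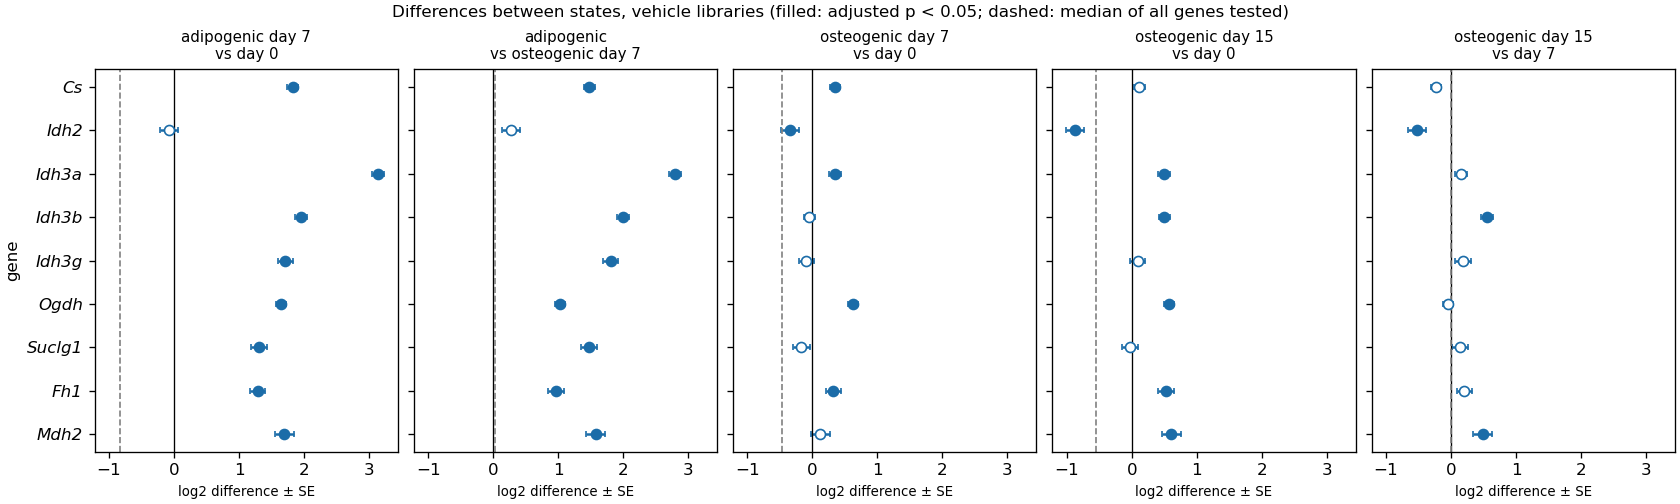
Log2 difference (log2(RPKM + 1) scale, points) ± SE (bars) of each citrate cycle gene for 5 comparisons of vehicle libraries, with filled points for genes past adjusted p below 0.05. The dashed line is the median of all 21097 genes tested; in the comparisons of adipogenic cells all members but Idh2 lie between 0.96 and 3.14, and Idh2 lies at -0.08 against day 0 and 0.27 against osteogenic day 7.

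The make-up of the pathway's RNA differed with it. The 9 members summed to 801 ± 25.1 RPKM in adipogenic vehicle libraries, against 262 ± 8.40 on osteogenic day 7 and 248 ± 7.58 at day 0. Idh3a was the highest of the 9 in adipogenic cells, with 22.6 ± 0.431% of the sum, against 9.63 ± 1.09% on osteogenic day 7 and 7.96 ± 0.834% at day 0. Idh2 was the highest member at day 0, with 18.9 ± 2.52% of the sum, and held 5.51 ± 0.126% in adipogenic libraries. Cs was the highest member on osteogenic day 7 and Fh1 on osteogenic day 15, in vehicle and VD3 libraries alike.

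Within the NAD+-dependent enzyme, the ratio of Idh3a to Idh3g was 4.0 ± 0.351 in adipogenic vehicle libraries, against 2.06 ± 0.187 on osteogenic day 7 and 1.55 ± 0.486 at day 0. The ratio of Idh3a to Idh3b was 1.35 ± 0.0672 in adipogenic vehicle libraries, against 0.775 ± 0.140 on osteogenic day 7 and 0.579 ± 0.0186 at day 0. The mean log2 ratio of Idh3a to Idh3g was 1.41 higher in adipogenic libraries than at day 0 and 0.96 higher than on osteogenic day 7, each with p = 0.1 in an exact two-sided permutation test of 3 against 3 libraries, the smallest p this design allows. Between osteogenic day 7 and day 0 it differed by 0.46 and between osteogenic day 15 and day 0 by 0.42, each with an exact permutation p = 0.2. Between osteogenic day 15 and day 7 it differed by -0.04 (exact permutation p = 0.8). Idh2 and Idh3a, the genes for NADP+-dependent and NAD+-dependent oxidation of the same substrate in the same compartment, had a ratio of 0.244 ± 0.00983 in adipogenic vehicle libraries, against 1.46 ± 0.281 on osteogenic day 7 and 2.40 ± 0.384 at day 0.

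**Figure D3:**
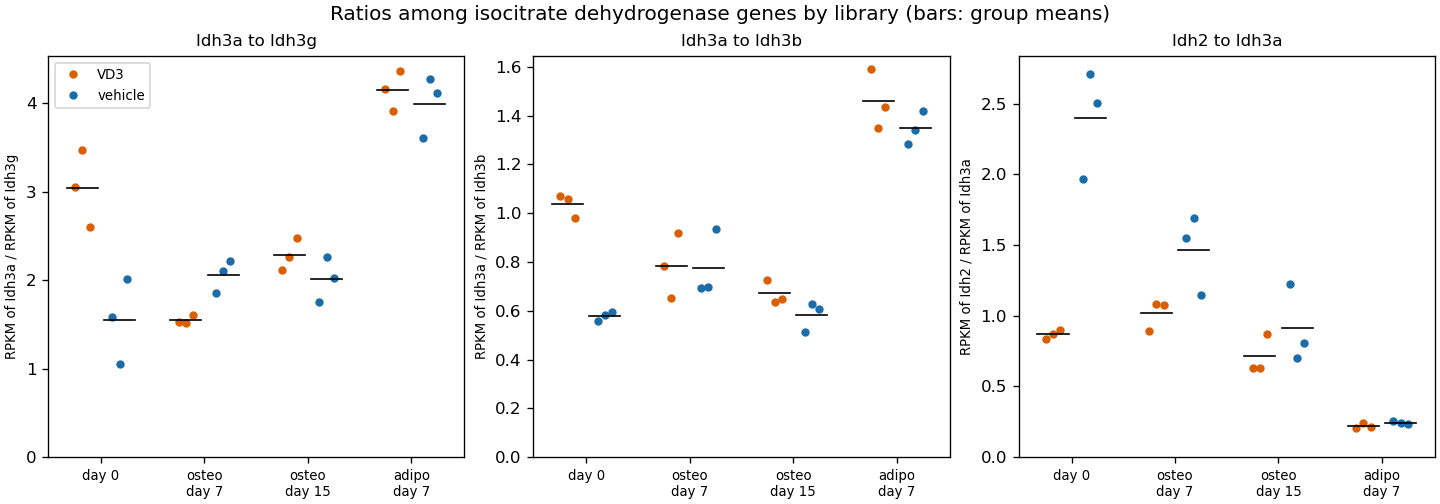
Ratios of RPKM (linear axes from 0) of Idh3a to Idh3g, Idh3a to Idh3b and Idh2 to Idh3a in each library, by state, with VD3 and vehicle libraries side by side. Points are libraries and bars group means; the adipogenic libraries have the highest ratios of Idh3a to its partner subunits and the lowest ratios of Idh2 to Idh3a.

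Promoters are shown for members that rose together in adipogenic cells (Cs and Idh3b) and for Idh2, which was not called, as the 250 bases before the start in RefSeq's table for GRCm38.p6, which held 8 of the 9 members and not Idh3a. Capitals mark matches on either strand to GGGCGG, the letters of the GC box bound by SP and KLF factors, and to CCAAT, the letters of the CCAAT box. The window of Cs is chr10:128337477-128337726 (plus strand), that of Idh3b chr2:130284452-130284701 (minus strand) and that of Idh2 chr7:80115351-80115600 (minus strand), each read 5′ to 3′ toward the start.
Cs: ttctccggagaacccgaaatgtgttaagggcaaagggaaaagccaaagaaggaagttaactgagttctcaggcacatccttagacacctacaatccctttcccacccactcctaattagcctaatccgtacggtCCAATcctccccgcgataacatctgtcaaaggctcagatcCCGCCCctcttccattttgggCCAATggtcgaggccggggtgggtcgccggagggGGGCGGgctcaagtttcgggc
Idh3b: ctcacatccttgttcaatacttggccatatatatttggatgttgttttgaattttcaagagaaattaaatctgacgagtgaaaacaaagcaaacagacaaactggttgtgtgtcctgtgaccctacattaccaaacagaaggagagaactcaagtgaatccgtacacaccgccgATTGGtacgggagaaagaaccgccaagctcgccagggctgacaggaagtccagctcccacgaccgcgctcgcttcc
Idh2: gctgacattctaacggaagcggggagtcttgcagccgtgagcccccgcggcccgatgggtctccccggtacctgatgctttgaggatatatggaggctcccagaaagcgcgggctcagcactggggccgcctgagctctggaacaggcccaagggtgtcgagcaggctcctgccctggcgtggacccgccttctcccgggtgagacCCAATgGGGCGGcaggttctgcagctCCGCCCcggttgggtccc
The promoter of Cs held matches to both motifs, that of Idh3b held a CCAAT match alone, and that of Idh2 held both. Among the 8 members in the table, 5 had GGGCGG, against 35.4% of all 27025 genes in it, and 5 had CCAAT, against 37.5%. The NRF1 letters GCGCANGCG were found for Ogdh alone, which has several listed starts, against 5.86% of all genes. The ERR letters TCAAGGTCA (0.422% of all genes), their 7-base core AAGGTCA (4.70%), and the GABP letters CCGGAAGT (3.23%) had no match in these windows of the 8 members, which says only that these letters are not there.

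The rest of the pathway is given from lists of its other genes. Of 9 other citrate cycle subunits, among them Sdhb, Suclg2, Dlst and Dld, 9 rose and 0 fell in adipogenic cells against day 0, with a median log2 difference of 1.68. Against osteogenic day 7, 9 rose and 0 fell, with a median of 1.37. Dld, the dehydrogenase shared by the 2-oxoglutarate and pyruvate dehydrogenase complexes, reached 258 ± 8.41 RPKM in adipogenic cells, against 45.0 ± 6.68 on osteogenic day 7 and 37.4 ± 2.97 at day 0. These counts of 9 were the same under median-ratio rescaling, quantile normalization and subtraction of the receptor median.

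Of 11 tested genes that bring pyruvate into the cycle, 6 rose and 3 fell in adipogenic cells against day 0, and 9 rose and 2 fell against osteogenic day 7. The mitochondrial pyruvate carrier genes, listed under older symbols, were among the risers: Brp44l (Mpc1) was at 367 ± 28.9 RPKM in adipogenic cells and 40.1 ± 4.77 at day 0, and Brp44 (Mpc2) at 315 ± 56.8 and 40.0 ± 6.98. Pdhb, a pyruvate dehydrogenase subunit, was at 144 ± 6.11 RPKM in adipogenic cells and 17.7 ± 0.927 at day 0. Those that fell against day 0 were the kinases Pdk3 and Pdk1, which inhibit pyruvate dehydrogenase, and the phosphatase Pdp1, which reactivates it: Pdk3 was at 1.90 ± 0.208 RPKM in adipogenic cells and 12.4 ± 0.328 at day 0. With median-ratio rescaling 8 rose and 1 fell of the 11. Against osteogenic day 7 the genes that fell were Pdk3 and Pdp1, and the other kinases rose among the 9: Pdk1 was at 20.1 ± 2.30 RPKM in adipogenic cells and 10.7 ± 1.31 on osteogenic day 7, and Pdk4 at 39.7 ± 2.98 and 25.1 ± 0.757.

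Of 13 genes that refill the cycle or carry its intermediates out, 8 rose and 3 fell in adipogenic cells against day 0. Pcx, pyruvate carboxylase, which makes oxaloacetate, was the largest of these rises, at 211 ± 11.8 RPKM in adipogenic cells, against 5.10 ± 0.810 on osteogenic day 7 and 7.31 ± 1.23 at day 0. The cytosolic counterparts of the cycle's enzymes also rose for 3 of 4 genes: Mdh1 was at 264 ± 15.5 RPKM in adipogenic cells and 32.9 ± 2.50 at day 0, Aco1 at 66.3 ± 2.39 and 11.0 ± 2.54, and Idh1 at 493 ± 48.5 and 222 ± 6.12. The transaminase gene Got1 was called lower, at 8.09 ± 0.542 RPKM in adipogenic cells and 9.98 ± 1.28 at day 0, and with median-ratio rescaling it was called higher. Idh1 encodes the cytosolic NADP+-dependent isocitrate dehydrogenase, and its mitochondrial counterpart Idh2 was not called.

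Mitochondrial genes outside the cycle were taken as a further list. Of 10 such genes, 8 rose and 0 fell in adipogenic cells against day 0, with a median log2 difference of 1.09. They were led by Hspa9, a matrix chaperone, at 600 ± 61.4 RPKM in adipogenic cells and 145 ± 1.99 at day 0. Against osteogenic day 7, 8 rose and 1 fell: Tomm22, a receptor of the outer membrane import pore, was at 49.8 ± 2.71 RPKM in adipogenic cells and 71.3 ± 9.93 on osteogenic day 7. Of 7 regulators of mitochondrial genes, 4 rose and 3 fell in adipogenic cells against day 0. Against osteogenic day 7, 2 of these regulators rose and 2 fell. Esrra, the receptor ERR-alpha, was at 29.7 ± 2.07 RPKM in adipogenic cells and 12.6 ± 2.18 at day 0. Nrf1 fell to 10.4 ± 0.882 RPKM, against 14.6 ± 1.55 at day 0, a log2 difference of -0.45 beside a median of -0.83 for all genes. It was also lower than on osteogenic day 7, where it was at 16.5 ± 2.16 RPKM.

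Among the genes whose levels over the 24 libraries were most like the mean of the 9 members were Gnpat, Echdc1, Acadm, Hibch, Ppcs, Uqcrfs1, Bag4 and Slc25a5, with Pearson correlations of 0.992 to 0.995. They were taken from 8914 genes, of which 289 had a correlation over 0.95. Acadm, which encodes an enzyme of mitochondrial fatty acid oxidation, was at 239 ± 17.2 RPKM in adipogenic vehicle libraries and 61.9 ± 5.91 at day 0. Without the 6 adipogenic libraries the correlation of these genes with the members was between 0.217 and 0.723 over 18 libraries. Among the members themselves, each of the 8 that rose in adipogenic cells had a correlation of 0.875 to 0.973 with the mean of the other 8 members over 24 libraries, and Idh2 of 0.393. Over the 18 other libraries Idh2 had -0.90 and the other members between -0.20 and 0.63. The libraries of a group share their state, so these values are descriptions.

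In osteogenic cells the citrate cycle genes were called in both directions. On day 7, 4 members rose against day 0 (Cs, Idh3a, Ogdh and Fh1) and 1 fell (Idh2), with a median log2 difference of 0.12, against -0.46 for all genes, of which 13.6% rose and 50.4% fell. On day 15, 5 members rose (Idh3a, Idh3b, Ogdh, Fh1 and Mdh2) and 1 fell (Idh2), with a median of 0.50, against -0.55 for all genes, of which 17.5% rose and 53.4% fell. Both comparisons share the day 0 vehicle libraries. The counts of rises and falls became 7 and 0 on day 7 and 7 and 1 on day 15 with median-ratio rescaling, and 6 and 0, and 7 and 1, with the receptor median subtracted.

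Idh2 was the member that fell. It was at 46.8 ± 5.55 RPKM at day 0, 36.5 ± 3.82 on osteogenic day 7 and 25.3 ± 5.12 on osteogenic day 15, where its libraries were at 31.1, 21.3 and 23.6 RPKM. Neighbouring time points did not overlap. The log2 difference was -0.35 on day 7 against day 0 (SE 0.14, adjusted p = 0.0295), -0.87 on day 15 against day 0 (SE 0.14, adjusted p = 1.93e-05) and -0.52 on day 15 against day 7 (SE 0.14, adjusted p = 0.0108). The day 15 fall against day 0 was called under each alternative tried. That of day 7 was not called without day 0 vehicle replicate 2 (adjusted p = 0.0508) or 3 (0.139) or without osteogenic day 7 vehicle replicate 3 (0.132), and was 0.07 with median-ratio rescaling and -0.23 (adjusted p = 0.159) with the receptor median subtracted. That of day 15 against day 7 was not called without osteogenic day 7 replicate 2 (adjusted p = 0.0598) or without osteogenic day 15 replicate 2 (0.0833) or 3 (0.0513), and was -0.17 (adjusted p = 0.557) between VD3-treated libraries.

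Ogdh was higher on both osteogenic days than at day 0. It was at 7.84 ± 0.512 RPKM at day 0, 12.6 ± 0.581 on osteogenic day 7 and 12.2 ± 0.210 on osteogenic day 15. The day 0 libraries lay below all osteogenic ones, and the osteogenic days overlapped. The log2 difference was 0.62 on day 7 (SE 0.08, adjusted p = 2.69e-06) and 0.58 on day 15 (SE 0.08, adjusted p = 2.93e-06) against day 0, and it was called under each alternative tried in both. Day 15 was not called against day 7 (-0.04, SE 0.08, adjusted p = 0.912). Among VD3-treated libraries Ogdh was called lower on day 15, at 13.0 ± 0.538 RPKM, than on day 7, at 15.7 ± 1.02 (-0.25, adjusted p = 0.0257).

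Fh1 and Mdh2, at the end of the cycle, were both higher on osteogenic day 15 than at day 0. Fh1 was at 36.8 ± 1.93 RPKM at day 0, 46.2 ± 1.24 on osteogenic day 7 and 53.6 ± 5.43 on osteogenic day 15, with log2 differences from day 0 of 0.32 (SE 0.12, adjusted p = 0.0207) and 0.53 (SE 0.12, adjusted p = 4.90e-04). The day 7 rise of Fh1 was not called without day 0 vehicle replicate 2 (adjusted p = 0.0530) or 3 (0.0650) or osteogenic day 7 vehicle replicate 3 (0.0541), with quantile normalization (0.18, adjusted p = 0.232) or between VD3-treated libraries (0.22, adjusted p = 0.131). Fh1 on day 15 against day 7 was not called (0.21, SE 0.12, adjusted p = 0.341). Mdh2 was at 13.9 ± 2.09 RPKM at day 0, 15.1 ± 0.766 on osteogenic day 7 and 21.6 ± 1.01 on osteogenic day 15. Its day 15 libraries, at 21.5, 22.6 and 20.6 RPKM, were above all of day 0 and day 7, with log2 differences of 0.61 from day 0 (SE 0.15, adjusted p = 9.57e-04) and 0.49 from day 7 (SE 0.15, adjusted p = 0.0267). The second was not called when any 1 of osteogenic day 7 replicates 2 and 3 or day 15 replicates 1, 2 and 3 was left out (adjusted p = 0.0515 to 0.0975), nor with plain empirical Bayes (adjusted p = 0.0516), quantile normalization (0.44, adjusted p = 0.0924), median-ratio rescaling (0.46, adjusted p = 0.141) or the receptor median subtracted (0.50, adjusted p = 0.136). Between VD3-treated libraries it was 0.24 (adjusted p = 0.356). Mdh2 on day 7 against day 0 was not called (0.12, SE 0.15, adjusted p = 0.490), and was called higher with median-ratio rescaling (0.52, adjusted p = 0.0152), with the receptor median subtracted (0.59, adjusted p = 0.0148) and between VD3-treated libraries (0.58, adjusted p = 0.00511).

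Of the subunits of the NAD+-dependent enzyme, Idh3a and Idh3b rose in osteogenic cells and Idh3g was not called. Idh3a was at 19.7 ± 2.50 RPKM at day 0, 25.2 ± 2.49 on osteogenic day 7 and 28.3 ± 2.58 on osteogenic day 15, with log2 differences from day 0 of 0.34 (SE 0.10, adjusted p = 0.00364) and 0.50 (SE 0.10, adjusted p = 1.24e-04). Idh3b was at 34.2 ± 4.65 RPKM at day 0, 32.9 ± 2.55 on osteogenic day 7 and 48.6 ± 0.895 on osteogenic day 15, and rose against day 0 (0.50, SE 0.09, adjusted p = 6.55e-05) and against day 7 (0.55, SE 0.09, adjusted p = 1.39e-04) on day 15. Idh3g was at 13.3 ± 2.82, 12.3 ± 0.976 and 14.1 ± 0.622 RPKM in the same order and was called in none of the 3 comparisons. With median-ratio rescaling Idh3b was called higher on day 7 (0.37) and Idh3g on day 7 (0.30) and day 15 (0.45) against day 0. With the receptor median subtracted Idh3g was called higher on day 7 (0.41, adjusted p = 0.0356) and day 15 (0.60, adjusted p = 0.00361). The neighbouring gene Nop56, whose end overlaps that of Idh3b in RefSeq's GRCm38 gene order, also rose on day 15, at 60.8 ± 9.10 RPKM, against 29.0 ± 2.21 at day 0. In adipogenic cells Nop56 fell to 22.7 ± 2.03 RPKM, in a comparison with day 0 where the median log2 difference of all genes was -0.83. The part of Nop56 in the Idh3b values was not tested. Among VD3-treated libraries the sign of the Idh3a difference from day 0 was the opposite, -0.71 on day 7 (adjusted p = 7.45e-06) and -0.38 on day 15 (adjusted p = 0.00341). Between the same libraries Idh3a was called higher on day 15 than day 7 (0.33, adjusted p = 0.0165) and Idh3b lower on day 7 than day 0 (-0.31, adjusted p = 0.0118).

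Cs was at 37.7 ± 1.24 RPKM at day 0, 48.3 ± 2.68 on osteogenic day 7 and 41.1 ± 4.43 on osteogenic day 15. It rose on day 7 (log2 difference 0.35, SE 0.08, adjusted p = 0.00101) and was not called on day 15 against day 0 (0.12, SE 0.08, adjusted p = 0.207). On day 15 it was called higher with median-ratio rescaling (0.50, adjusted p = 0.00231) and with the receptor median subtracted (0.27, adjusted p = 0.0106). Suclg1 was at 37.6 ± 4.27, 33.5 ± 5.53 and 36.7 ± 2.05 RPKM in the same order and was not called; with quantile normalization it was called lower on day 7 against day 0 (-0.31, adjusted p = 0.0415). On osteogenic day 15 against day 7, 2 members rose (Idh3b and Mdh2) and 1 fell (Idh2), with a median of 0.16, against 0.00 for all genes, of which 6.87% rose and 6.47% fell. Cs, at -0.23 (SE 0.08, adjusted p = 0.0712) in that comparison, was called lower without osteogenic day 15 replicate 1 (-0.32, adjusted p = 0.0150), with the 5 RPKM filter (adjusted p = 0.0371), with quantile normalization (-0.28, adjusted p = 0.0325) and between VD3-treated libraries (-0.48, adjusted p = 2.04e-04).

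Of the 9 other citrate cycle subunits, 4 rose and 1 fell on osteogenic day 15 against day 0. Dld was at 64.3 ± 13.2 RPKM on day 15 and 37.4 ± 2.97 at day 0, and Sdhb, the iron-sulfur subunit of succinate dehydrogenase, at 35.9 ± 1.80 and 20.6 ± 0.987. Suclg2, the GTP-forming beta subunit of succinyl-CoA synthetase, fell to 25.8 ± 1.91 RPKM, against 35.0 ± 4.53 at day 0. Its log2 difference was -0.42, beside a median of -0.55 for all genes. Of the 10 mitochondrial genes outside the cycle, 9 rose and 0 fell on day 15 against day 0, and 6 rose with quantile normalization. They were led by the matrix protease Lonp1, at 55.8 ± 1.25 RPKM on day 15 and 16.8 ± 1.57 at day 0. Idh1 fell on day 15, to 121 ± 3.30 RPKM, against 222 ± 6.12 at day 0, in the same direction as Idh2.

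After 24 hours of VD3, Idh3a rose at day 0, and Ogdh rose and Idh2 fell on osteogenic day 7. The hormone acts through the nuclear receptor Vdr, and Cyp24a1, which encodes the enzyme that breaks it down and is a standard target, rose in all 4 states. Cyp24a1 was at 13.0 ± 0.576 RPKM after VD3 and 1.62 ± 0.661 with vehicle at day 0, 19.8 ± 3.00 and 0.109 ± 0.0960 on osteogenic day 7, 10.7 ± 2.57 and 0.218 ± 0.266 on osteogenic day 15, and 3.10 ± 0.429 and 0.252 ± 0.135 on adipogenic day 7. At day 0, 1 member rose (Idh3a) and 0 fell, with 15% of all genes called. On osteogenic day 7, 1 rose (Ogdh) and 1 fell (Idh2), with 5.26% of all genes called. On osteogenic day 15 and adipogenic day 7 limma called 0 members, with 0.773% and 2.08% of all genes called, and at an unadjusted p below 0.05 there was 1 (Cs, lower) and 0. Set beside these shares of all genes, the counts of 0 to 2 members are no result about the citrate cycle as a group. At day 0 the median log2 difference of all genes was -0.27, which median-ratio rescaling raised by 0.19. All genes called at day 0 were 840 higher and 2328 lower, and 1216 and 680 rescaled. The same split was 614 and 496, and 298 and 467 rescaled, on osteogenic day 7, and 111 and 52, and 71 and 15 rescaled, on osteogenic day 15.

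Idh3a was at 40.8, 43.1 and 40.3 RPKM in the VD3 libraries of day 0, against 21.3, 16.9 and 21.1 RPKM with vehicle. The VD3 libraries were all above the vehicle libraries, and replicate 2, the VD3 library with low receptor signal, was at the level of the other VD3 libraries. Idh3a rose 2.10-fold by group means (log2 difference 1.04, SE 0.10, adjusted p = 5.85e-08), and the 16 alternatives gave 0.93 to 1.27, each past the threshold. The sum of the 6 osteoblast markers was lower with VD3 in every state. At day 0 it was 12.6 to 14.3 RPKM after VD3 and 23.9 to 27.2 with vehicle. The same values were 291 to 348 and 515 to 534 on osteogenic day 7. They were 308 to 337 and 654 to 731 on osteogenic day 15, and 23.8 to 30.2 and 119 to 140 in adipogenic cells. Limma called 3 of the 6 lower at day 0, 2 on osteogenic day 7, 1 on osteogenic day 15 and 2 in adipogenic cells. No marker was called higher. Ibsp was called in each state, and was at 238 ± 14.3 RPKM with VD3 and 596 ± 40.1 with vehicle on osteogenic day 15. The 6 adipocyte markers summed to 76.6 to 92.7 RPKM with VD3 and 94.7 to 120 with vehicle at day 0. The part of these markers in the VD3 differences was not tested. On osteogenic day 7 Idh3a was at 24.4, 22.6 and 27.9 RPKM with VD3 and 24.1, 23.5 and 28.1 RPKM with vehicle, which overlap (log2 difference -0.02, SE 0.10). On osteogenic day 15 it was at 33.3, 30.6 and 31.0 RPKM with VD3 and 25.3, 30.2 and 29.2 RPKM with vehicle (0.16, SE 0.10, adjusted p = 0.975). In adipogenic cells it was at 197, 199 and 206 RPKM with VD3 and 175, 177 and 191 RPKM with vehicle (0.15, SE 0.10, adjusted p = 0.928). In the last pair of comparisons the VD3 libraries lay above the vehicle libraries without passing the test.

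The VD3 effect on Idh3a differed between states by tests of the difference itself. It was lower on osteogenic day 7 than at day 0 (log2 difference -1.05, SE 0.13, adjusted p = 8.47e-05), a comparison in which 2.55% of all genes were called. It was lower in adipogenic cells than at day 0 (log2 difference -0.89, SE 0.13, adjusted p = 3.41e-04), where 3.47% of all genes were called. No other member was called in these comparisons, in which 3 further members on osteogenic day 7 and 0 in adipogenic cells passed an unadjusted p below 0.05. Between osteogenic days 15 and 7, and between adipogenic and osteogenic day 7, limma called 0 members for a difference in the VD3 effect, with 0.185% and 1.82% of all genes called and 2 members in each at an unadjusted p below 0.05. Of all genes, 391 had a higher and 148 a lower VD3 effect on osteogenic day 7 than at day 0, and 67 and 228 with median-ratio rescaling. For adipogenic cells against day 0 these counts were 519 and 213, and 112 and 295 rescaled.

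**Figure D4:**
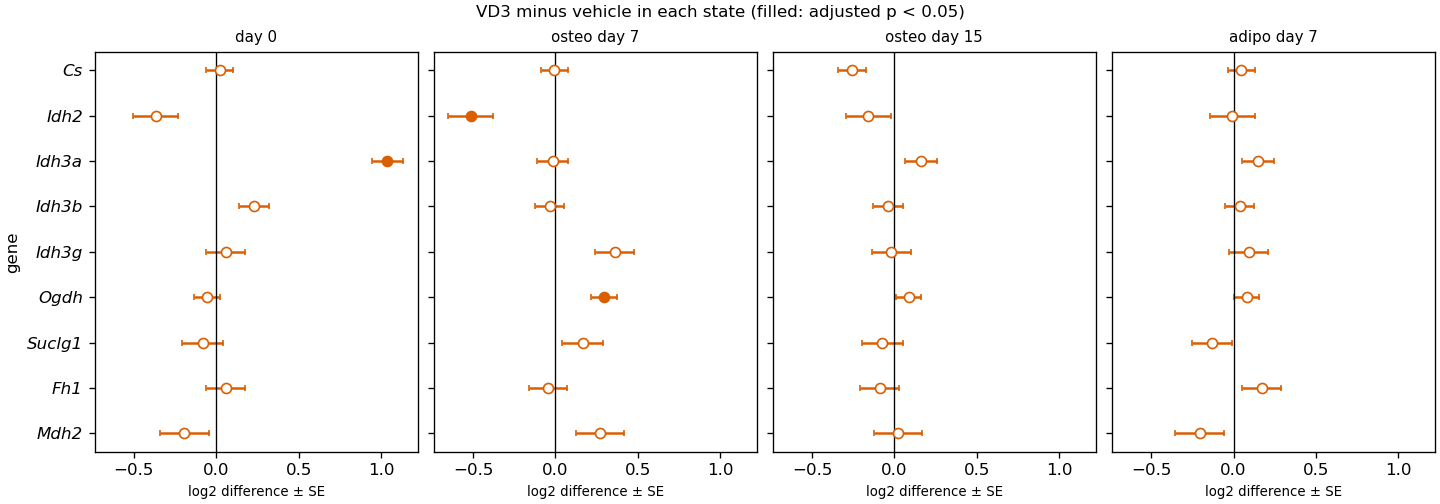
Log2 difference of VD3 minus vehicle libraries (log2(RPKM + 1) scale, points) ± SE (bars) for the 9 citrate cycle genes in each state, with filled points for genes past adjusted p below 0.05. Idh3a at day 0 stands at 1.04, and every other value lies between -0.51 and 0.36.

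The balance of the isocitrate dehydrogenases at day 0 is given as ratios, without a test. The ratio of Idh2 to Idh3a was 0.868 ± 0.0318 with VD3 and 2.40 ± 0.384 with vehicle, and that of Idh3a to Idh3g was 3.04 ± 0.435 with VD3 and 1.55 ± 0.486 with vehicle. Idh3a was the highest member after VD3 and Idh2 with vehicle, and the sum of the 9 members was 263 ± 15.5 RPKM with VD3 and 248 ± 7.58 RPKM with vehicle. Idh2 was at 34.0, 37.7 and 36.1 RPKM with VD3 at day 0 and 41.9, 45.7 and 52.8 RPKM with vehicle, which do not overlap, and was not called (-0.37, SE 0.14, adjusted p = 0.0682). Idh3b, at 40.0 ± 1.59 RPKM with VD3 and 34.2 ± 4.65 with vehicle (0.23, SE 0.09, adjusted p = 0.0841), was called without day 0 vehicle replicate 1 (0.31, adjusted p = 0.0398), with median-ratio rescaling (0.47) and with the receptor median subtracted (0.31).

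On osteogenic day 7, Idh2 was at 21.7, 24.5 and 30.0 RPKM with VD3, against 37.4, 39.8 and 32.3 RPKM with vehicle, all below. It fell by 0.51 on the log2 scale (SE 0.14, adjusted p = 0.0255), and was not called without vehicle replicate 1 (adjusted p = 0.0896) or 2 (0.141) or VD3 replicate 1 (0.161) or 2 (0.0734), nor with plain empirical Bayes (0.0565) or in a fit of the compared libraries alone (0.0838). Ogdh was at 16.5, 14.6 and 16.0 RPKM with VD3, against 12.5, 12.1 and 13.2 RPKM with vehicle, all above. It rose by 0.30 (SE 0.08, adjusted p = 0.0227), and was not called without vehicle replicate 1 (adjusted p = 0.0766) or 2 (0.108) or VD3 replicate 1 (0.110) or 3 (0.0703), nor under median-ratio rescaling (0.19), quantile normalization (0.27), subtraction of the receptor median (adjusted p = 0.668) or a fit of the compared libraries alone (adjusted p = 0.182). For neither gene was the VD3 effect on osteogenic day 7 called different from that at day 0 (adjusted p = 0.629 for Idh2 and 0.0837 for Ogdh).

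Among the related enzymes, Idh1 rose with VD3 at day 0 beside Idh3a, at 505 ± 16.3 RPKM with VD3, against 222 ± 6.12 with vehicle (log2 difference 1.18, SE 0.10, adjusted p = 1.58e-08), and was called under each of 16 alternatives. On osteogenic day 7 it was at 302 ± 50.5 RPKM with VD3 and 227 ± 3.50 with vehicle (0.40, SE 0.10, adjusted p = 0.0160), and 9 of 16 alternatives called it. Of the 9 other citrate cycle subunits, 0 rose and 1 fell at day 0: Dlst, the core of the 2-oxoglutarate dehydrogenase complex, at 45.8 ± 3.30 RPKM with VD3 and 56.1 ± 2.51 with vehicle. With median-ratio rescaling 2 rose and 0 fell.

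Of the 11 genes of pyruvate entry, 2 rose and 2 fell with VD3 at day 0, 1 rose and 2 fell on osteogenic day 7, and 1 rose and 1 fell in adipogenic cells. Pdp1, the phosphatase that activates pyruvate dehydrogenase, rose with VD3 at day 0 (45.5 ± 2.46 RPKM, against 23.1 ± 1.37 with vehicle), on osteogenic day 7 (31.7 ± 4.68 against 20.4 ± 4.55) and in adipogenic cells (26.9 ± 0.626 against 15.6 ± 0.196). Pdk4, a kinase that inhibits the same complex, fell in these 3 states: it was at 23.8 ± 0.748 RPKM with VD3 and 44.3 ± 2.36 with vehicle at day 0, 19.1 ± 2.08 and 25.1 ± 0.757 on osteogenic day 7, and 23.5 ± 2.82 and 39.7 ± 2.98 in adipogenic cells. Of the subunits of that complex, Pdhb rose at day 0, to 23.4 ± 2.29 RPKM, against 17.7 ± 0.927 with vehicle. Pdha1 fell at day 0, to 131 ± 12.6 RPKM, against 161 ± 2.60 with vehicle, and on osteogenic day 7, to 217 ± 19.4 RPKM, against 272 ± 20.6. The log2 difference of Pdha1 was -0.30 at day 0, beside a median of -0.27 for all genes. On osteogenic day 7 it was -0.33, beside a median of 0.07.

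The neighbouring genes of the members were looked up in RefSeq's gene order on GRCm38, since the files give no positions and reads of neighbours can be assigned to a gene where transcripts overlap. Of 18 protein-coding neighbours, 14 were tested, and at day 0 VD3 called 2 higher and 1 lower. Cib2, the neighbour of Idh3a on chromosome 9 and the gene of a calcium-binding protein, was at 37.6, 31.7 and 34.3 RPKM with VD3, against 2.72, 1.96 and 2.48 RPKM with vehicle, and was singled out after its values were seen. All VD3 libraries were far above the vehicle libraries (log2 difference 3.40, SE 0.20, adjusted p = 6.95e-11), and the 16 alternatives gave 3.30 to 5.04, each past the threshold. The vehicle values lie below the receptor medians of the same libraries (3.50 to 4.93 RPKM), so no fold is given. On osteogenic day 7 Cib2 was at 5.54, 7.50 and 3.76 RPKM with VD3, against 0.725, 0.935 and 0.462 RPKM with vehicle (1.92, SE 0.20, adjusted p = 1.12e-06), while Idh3a did not differ beyond its spread there. On osteogenic day 15 it was at 1.58, 1.88 and 2.22 RPKM with VD3, against 1.02, 0.156 and 0.430 RPKM with vehicle (0.95, SE 0.20, adjusted p = 0.0240), and 8 of 16 alternatives called it. In adipogenic cells it was at 16.8, 21.8 and 20.1 RPKM with VD3 and 18.7, 14.8 and 12.1 RPKM with vehicle, and was not called. Cib2 also rose in adipogenic vehicle libraries against day 0, to 15.2 RPKM on average against 2.39 RPKM.

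Acsbg1, on the other side of Idh3a, was at 2.07 ± 0.193 RPKM with VD3 and 2.04 ± 0.190 with vehicle at day 0. Idh3a and Cib2 do not overlap in that annotation, and whether reads of one were counted for the other was not tested. The other neighbours called at day 0 were Tmed4, next to Ogdh, at 21.8 ± 2.88 RPKM with VD3 and 16.7 ± 3.29 with vehicle, and Dnahc6, next to Suclg1, at 0.911 RPKM with VD3 and 2.11 RPKM with vehicle on average. The receptor median was 3.4 to 4.9 RPKM in all day 0 libraries but VD3 replicate 2, where it was 0.456 RPKM. The day 0 means of Acsbg1 and Dnahc6 lie below that range, so they cannot show whether VD3 changed these genes. The libraries were directional, and whether the counting used strand is not given in the sources used here.

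**Figure D5:**
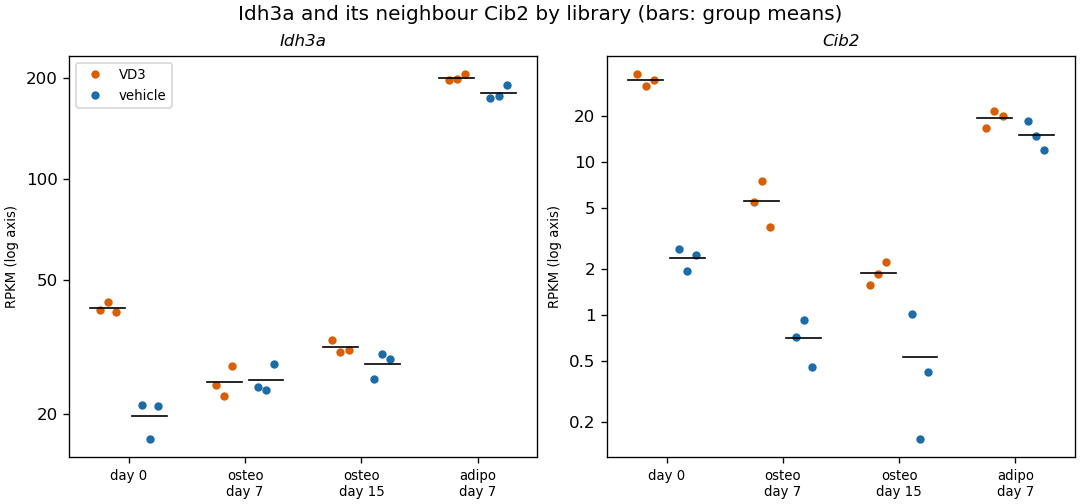
RPKM (log axes) of Idh3a and of its neighbour Cib2 in each library, by state, with VD3 and vehicle libraries side by side. Points are libraries and bars group means; with VD3 at day 0 Idh3a reached 40.3 to 43.1 RPKM and Cib2 31.7 to 37.6 RPKM, and in adipogenic cells both were high with and without VD3.

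Across the 8 groups, Idh3a ran from adipogenic VD3 (200.4 ± 4.50 RPKM) and adipogenic vehicle (181 ± 8.82) through day 0 VD3 (41.4 ± 1.53), osteogenic day 15 VD3 (31.6 ± 1.47), osteogenic day 15 vehicle (28.3 ± 2.58), osteogenic day 7 vehicle (25.2 ± 2.49) and osteogenic day 7 VD3 (24.9 ± 2.66) to day 0 vehicle (19.7 ± 2.50). The neighbours from osteogenic day 15 vehicle to osteogenic day 7 VD3 in that order overlapped. Over the 18 libraries outside adipogenic cells, the ratio of the highest to the lowest value was smallest for Suclg1 (27.5 to 42.4 RPKM, 1.54-fold) and Cs (33.3 to 51.4 RPKM, 1.54-fold) and largest for Idh2 (19.3 to 52.8 RPKM, 2.74-fold) and Idh3a (16.9 to 43.1 RPKM, 2.56-fold). By coefficient of variation the order was partly different, with 10.8% for Suclg1, 12.9% for Idh3g and 14.6% for Cs at the low end, and 29.5% for Idh2, 26.5% for Ogdh, 26.4% for Mdh2 and 25.3% for Idh3a at the high end.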

How the data were processed

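RNA-seq was made from 24 libraries, 8 groups of 3, by ribosomal RNA depletion and a directional kit, per the labels' protocols. Reads were aligned with TopHat to mm9, per the submitters' processing notes; the quantifier and its use of strand are not given in the sources used here. The deposited values are RPKM per transcript row, which the authors normalized by length and library, so no count test was run. Each file held 30795 rows and 25410 symbols; 40 rows whose 25 symbols had turned into dates were dropped, and rows were summed by symbol to 25385 genes. No 2 libraries held identical values. The 21097 genes that reached 1 RPKM in 3 libraries or more were tested on log2(RPKM + 1), pseudocount 1, with limma 3.58.1 in R 4.3.3 (8 groups, empirical Bayes with trend and robust settings, Benjamini-Hochberg within each comparison, adjusted p below 0.05), after tests on simulated data. The log2(RPKM + 1) scale understates changes of low genes.

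Tables and plots used Python 3.11.15, numpy 2.4.6, pandas 2.3.3 and matplotlib 3.10.9. Estimated depth was 7.09 to 47.5 M reads, so 3 reads on a 1 kb transcript correspond to 0.0632 to 0.423 RPKM. The 9 members and the lists were chosen with earlier results of these data known. Named from each list were up to 3 called genes each way by size of difference whose higher group averaged 5 RPKM or more, plus the 10 genes most correlated with the members; other genes named were chosen after their values were seen. A few genes picked this way were left out of the text. Replicate numbers were not used to pair the samples. Of 84 same-numbered pairs, 13 had a correlation over 0.1, and the range was -0.352 to 0.444. Differently numbered pairs were not compared, so these values cannot decide whether the samples were paired. Alternatives were pseudocount 0.1, a 5 RPKM filter or none, median-ratio and quantile scaling, subtraction of the receptor median, plain empirical Bayes, fits on the compared groups alone, a replicate block, the largest transcript of a symbol, exchange of vehicle for VD3-treated libraries in comparisons of states, and omission of each library. Promoters are RefSeq's, GRCm38.p6; no coordinate of mm9 was used.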

Additional observations from a re-analysis of the deposited data

Results flagged for a closer look

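The VD3 effect on Idh3a differed between states by a test of the difference itself. On osteogenic day 7 it was lower than at day 0 (log2 difference -1.05, limma, adjusted p = 8.47e-05), and in adipogenic cells it was lower than at day 0 (log2 difference -0.89, adjusted p = 3.41e-04). Both differences rest on the same day 0 libraries, and 5 of those 6 stood apart in receptor signal and had the lowest depths. Each was called under all 22 alternatives, with ranges of -1.40 to -0.95 and -1.21 to -0.79. The cause was not tested.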

How the results depend on the processing

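The 8 rises in adipogenic cells against day 0 and against osteogenic day 7, the VD3 rise of Idh3a at day 0 and its 2 differences between states were called under every alternative run for them. The osteogenic counts were less settled, and the causes were not tested. Against day 0 on osteogenic day 7, risers numbered 7 with median-ratio rescaling and 1 when VD3-treated libraries were compared and day 0 was reduced to its replicate 2, an alternative chosen after seeing the data that gives this single library the spread of the rest. Members lower numbered 0 with median-ratio rescaling or the receptor median subtracted, 2 with quantile normalization and 3 among VD3-treated libraries. On osteogenic day 15 against day 0, 2 were lower among VD3-treated libraries, and 1 was higher and 2 lower with that single library. On day 15 against day 7, 2 were lower with the 5 RPKM filter, quantile normalization or VD3-treated libraries, and 1 was higher with median-ratio rescaling, quantile normalization, plain empirical Bayes or the receptor median subtracted. With VD3 at day 0, 2 rose with median-ratio rescaling or the receptor median subtracted. With VD3 on osteogenic day 7, 0 rose with either scaling, the compared groups alone or the receptor median subtracted, and 0 fell with plain empirical Bayes or the compared groups alone. Signs turned for Idh2 with median-ratio rescaling (0.54 on adipogenic day 7 and 0.071 on osteogenic day 7 against day 0), for Idh3b (0.37) and Idh3g (0.30, and 0.41 with the receptor median subtracted) on osteogenic day 7, and for Idh3a among VD3-treated libraries (-0.71 on osteogenic day 7 and -0.38 on day 15, and -0.77 and -0.44 with that single library). The log2 ratio of Idh3a to Idh3g among VD3-treated libraries was -0.96 on osteogenic day 7 and -0.41 on day 15 against day 0, and 0.55 between them. Leaving out 1 library gave 0 to 1 lower on osteogenic day 7 against day 0, 1 to 2 higher and 0 to 2 lower on day 15 against day 7, 1 to 2 higher with VD3 at day 0, 0 to 1 higher and 0 to 1 lower with VD3 on osteogenic day 7, and -0.12 to 0.058 for the ratio between osteogenic days 15 and 7 (0.058 without osteogenic day 15 replicate 1, 0.019 without osteogenic day 7 replicate 3). Adding the replicate block changed no count of members, with 8 higher in adipogenic cells against day 0. Depth limits genes near 1 RPKM more than the members, whose lowest library value was 6.84 RPKM. That value was of Ogdh in day 0 VD3 replicate 1, where the receptor median was 4.45 RPKM, so low members at day 0 are best read beside that signal.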
